A study of Caenorhabditis elegans with 4 samples.

Results

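The genes described here set the switch between germline stem cells and meiosis in Caenorhabditis elegans: glp-1, lag-1, lag-2, fbf-1, fbf-2, gld-1, gld-2, gld-3, nos-3 and daz-1. They were chosen by name, and each was kept where its probes had values on at least 3 of the 4 arrays. Of the 10 genes, 7 were measured, all on 4 arrays, out of 19214 tested features (a feature is a named gene, or a probe to which no gene or more than 1 was assigned). The 3 genes lag-2, fbf-1 and daz-1 had no probe assigned to them alone in the platform annotation and were not analysed here. 1 further probe is assigned to gld-1 together with another gene and was kept out of the gld-1 value.

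Each array was a 2-colour hybridisation of whole adult males carrying a him-5 mutation, preparations 1 to 4, beside a reference from wild-type worms of mixed stages. him-5 mutants lose X chromosomes in meiosis and so give many males. The labels name neither the him-5 allele nor the age of the adults, and they call the material mRNA in the source names and total RNA in the molecule field. Values are log2 ratios of males over reference, so that a negative value means a lower level in males. That direction is likely from the wording and order of the channels, but no dye is named. Wild-type cultures of this species are mostly hermaphrodites and the reference held mixed stages, so sex, stage and genotype cannot be told apart in any ratio. In whole worms, fewer germ cells and less of an RNA per germ cell cannot be told apart either.

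The switch works through a niche, a receptor and a set of RNA regulators. The distal tip cell of the gonad presents LAG-2, a ligand of the Notch family, to GLP-1, the Notch receptor of germ cells, and the cleaved receptor acts in the nucleus with the DNA-binding protein LAG-1 to keep germ cells dividing. FBF-1 and FBF-2, RNA-binding proteins of the PUF family, keep stem cells by repressing messengers that drive meiosis, gld-1 among them. Away from the niche, GLD-1 acts with the Nanos protein NOS-3 in a branch that represses messengers, and the poly(A) polymerase GLD-2 acts with GLD-3 in a branch that activates them. Both branches drive entry into meiosis. DAZ-1 is an RNA-binding protein that oogenesis requires.

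Markers of the labelled animals were checked first. All 12 sperm markers were higher in males, as were 6 of 7 measured markers of male soma, while 10 of 12 markers of the oocyte and early embryo were lower. The exceptions were cwp-4 (-0.64, lower) in male soma and, among oocyte genes, cpg-2 (0.58, higher) and egg-1 (-0.20, not called). The calls of cwp-4 (without preparation 1, 2 or 3) and cpg-2 (without preparation 1, 3 or 4) were lost on 3 arrays. cwp-4 was negative and cpg-2 positive on all 4 arrays, and fits on 3 arrays also called fewer features in all. Of 10 general germ cell markers, 1 was higher (10%, against 22.1% of all features) and 3 were lower (30%, against 23.6%), with a median of 0.04. That median depended on single arrays and on scaling, at -0.23 without preparation 4, 0.25 without preparation 2 and -0.36 with arrays centred on ribosomal proteins. The counts ran from 0 higher in several settings to 4 higher with array weights. Intestine markers were mixed, with 2 of 6 higher (33.3%, against 22.1% of all features) and 1 lower (16.7%, against 23.6%). Among them the yolk genes were vit-6 (0.91, higher), vit-5 (0.39, not called) and vit-2 (-1.33, lower). Of 5 measured neuron markers 0 were higher and 2 lower (40%). Without preparation 3, 0 intestine markers were higher and 0 neuron markers were lower. Per array, 19424 to 19761 of 20000 probes had a value. Separate cultures are not stated for the preparations, so the p-values rest on the spread among these samples alone, and that spread may be technical.

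Of the 7 measured genes, glp-1 and gld-1 were lower in males and none was higher. Both passed limma, a linear model with a moderated spread fitted over all features, at a Benjamini-Hochberg adjusted p under 0.05. The share of switch genes called lower was 28.6%, against 23.6% of all tested features called lower and 22.1% called higher, so that the share of lower calls lay near the background. At an unadjusted p under 0.05, 4 genes were lower and 0 higher, where 27.4% of all features were lower and 26.9% higher. The median of the 7 mean log2 ratios was -0.65, beside 0.05 over all tested features, and 6 of the 7 means were below 0, as were 47.5% of all means. Without preparation 2 the median of the 7 was -0.40.

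**Figure D1:**
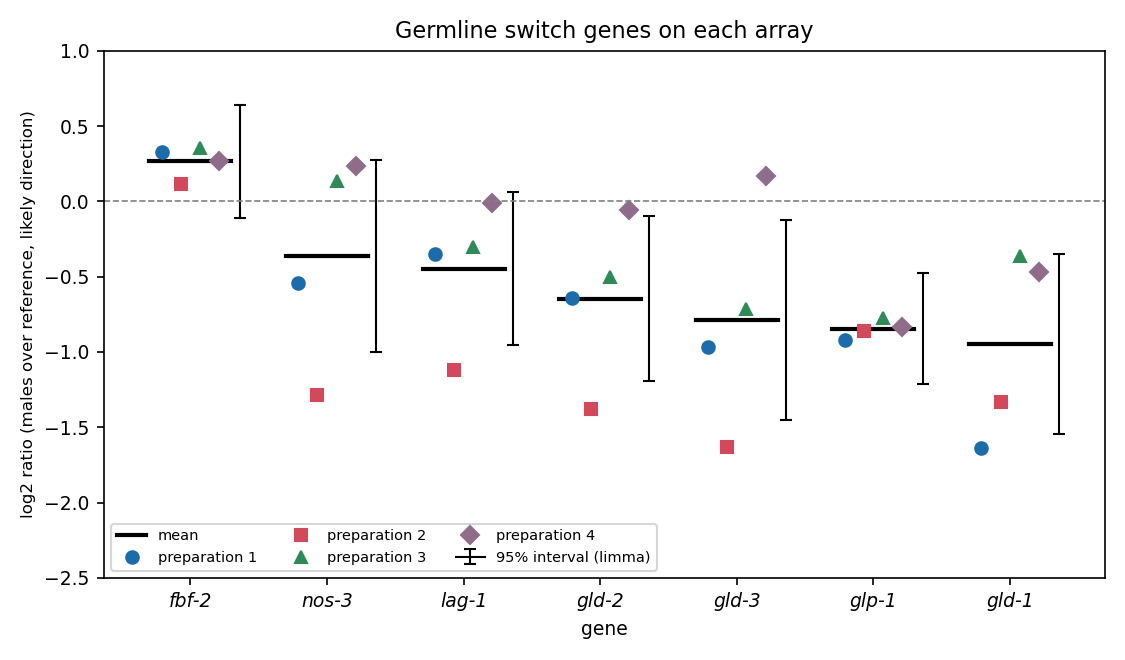
Log2 ratio of each measured gene (y axis) on the arrays of preparations 1 to 4 (coloured points), ordered from the highest to the lowest mean, with the mean (bar) and its 95% interval from limma (error bar, n = 4). The glp-1 points lie together between -0.92 and -0.77, whereas those of lag-1, gld-1, gld-2, gld-3 and nos-3 each spread over more than 1 log2 unit.

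The receptor gene glp-1 stood at -0.92, -0.86, -0.77 and -0.83 on preparations 1 to 4. All arrays were low and close to each other, with no array apart. The mean was -0.85 ± 0.06 (SD, n = 4), a level 1.80-fold lower in males, with a 95% interval of -1.22 to -0.48 and a limma adjusted p = 0.00453. Its SD was smaller than that of nearly all features, at the 0.554th percentile of the SDs of all tested features. The call held when any single preparation was left out, with means from -0.87 to -0.82. LAG-1 is the DNA-binding partner of the cleaved receptor, and lag-1 stood at -0.35, -1.12, -0.30 and -0.01. Preparation 2 was low and preparation 4 was at the reference level. The mean of lag-1 was -0.45 ± 0.47 (SD, n = 4, limma adjusted p = 0.128), with a 95% interval of -0.95 to 0.06, and it was not called. Without preparation 2 it stood at -0.22.

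The stem cell factor fbf-2 was the only switch gene with positive values on all arrays, 0.33, 0.12, 0.35 and 0.27 on preparations 1 to 4. These values lay within a narrow range, and preparation 2 was the lowest. The mean was 0.27 ± 0.11 (SD, n = 4, limma adjusted p = 0.204) and was not called, and its 95% interval of -0.11 to 0.64 contained 0. The sign turned negative when each array was centred on its ribosomal protein genes (-0.13) or on its chemoreceptor genes (-0.075). These centrings shift the median over all features by -0.40 and -0.34. fbf-1 and fbf-2 are close copies in sequence, and the fbf-2 probe may read both.

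For gld-1, whose product represses translation, the values were -1.63, -1.33, -0.36 and -0.47 on preparations 1 to 4. Preparations 1 and 2 were low and 3 and 4 were nearer to the reference, and these pairs did not overlap. The mean was -0.95 ± 0.63 (SD, n = 4), a level 1.93-fold lower in males, with a 95% interval of -1.54 to -0.35 and a limma adjusted p = 0.0199. This was the most negative mean of the 7 genes, at the 13.4th percentile of the means of all tested features. The call was lost without preparation 1 (-0.72, adjusted p = 0.0722) and without preparation 2 (-0.82, adjusted p = 0.0675). NOS-3 acts in the same branch, and nos-3 had 2 probes, whose average stood at -0.54, -1.28, 0.14 and 0.24. Preparations 1 and 2 were below the reference and 3 and 4 above it, on each probe alone too. The mean of nos-3 was -0.36 ± 0.70 (SD, n = 4, limma adjusted p = 0.302), not called, with a 95% interval of -1.002 to 0.28. The probes had means of -0.39 and -0.34, and without preparation 2 the gene stood at -0.06.

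The other branch had negative means that missed the threshold by little. The poly(A) polymerase gene gld-2 stood at -0.64, -1.38, -0.50 and -0.06, with preparation 2 low and preparation 4 near 0. Its mean was -0.65 ± 0.55 (SD, n = 4, limma adjusted p = 0.0568) with a 95% interval of -1.20 to -0.10. The gene of its partner, gld-3, stood at -0.97, -1.63, -0.72 and 0.17, with preparation 4 alone above the reference. Its mean was -0.79 ± 0.74 (SD, n = 4, limma adjusted p = 0.0557) with a 95% interval of -1.45 to -0.12. Single arrays moved both genes in either direction. Without preparation 2 the means were nearer to 0, with gld-2 at -0.40 (adjusted p = 0.12) and gld-3 at -0.51 (adjusted p = 0.16). Without preparation 4 both were called, gld-2 at -0.84 (adjusted p = 0.0298) and gld-3 at -1.11 (adjusted p = 0.0109). Both also passed the threshold with median centring, quantile normalization or array weights. They passed with the title month as a random block as well, but that fit used a correlation of -0.22 within months, estimated over all features, which narrows the error, whereas the months separate fully for these genes.

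**Figure D2:**
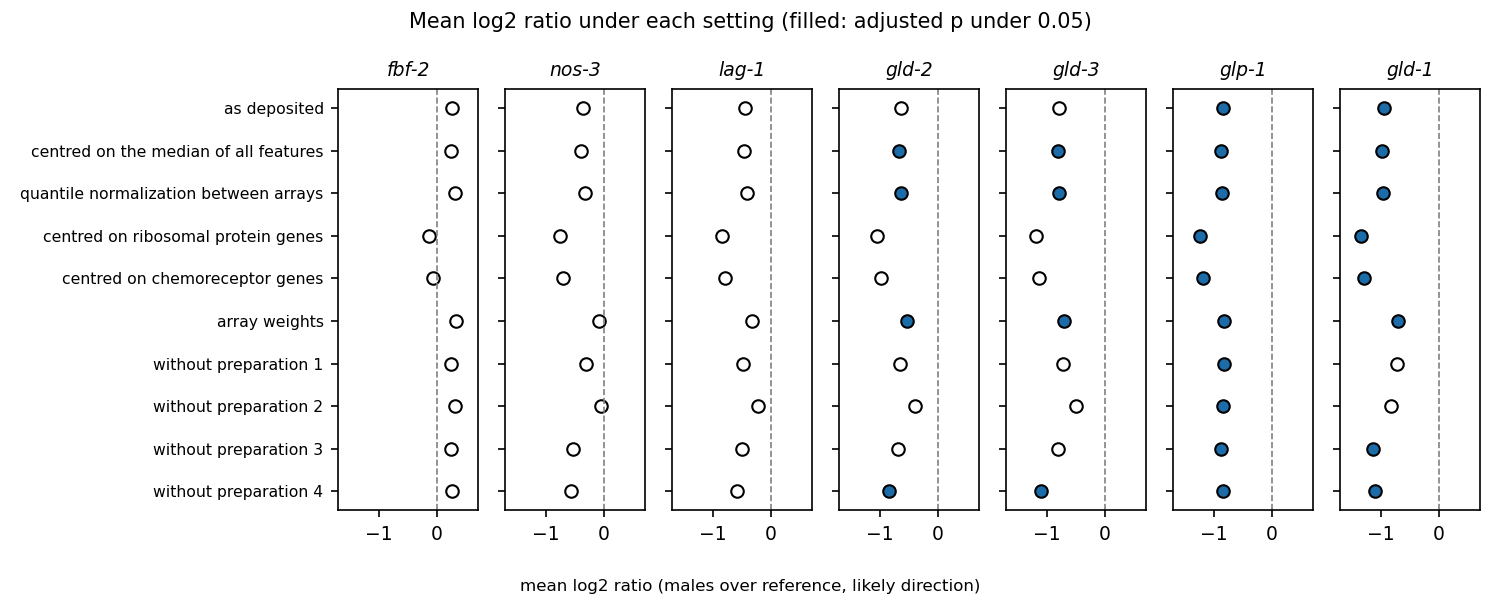
Mean log2 ratio of each gene (x axis, 1 panel per gene) under the values as deposited and under 9 of the alternative settings (y axis), with filled points where limma's adjusted p was under 0.05. The glp-1 points are filled in every setting drawn, gld-1 loses its fill without preparation 1 or 2, and gld-2 and gld-3 are filled without preparation 4, with median centring, with quantile normalization and with array weights.

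The means of the 7 genes ran from fbf-2 through nos-3, lag-1, gld-2, gld-3 and glp-1 down to gld-1, and most neighbours in that order could not be separated. fbf-2 lay above nos-3 on 4 of 4 arrays, by a mean of 0.63 with an SD of 0.63 over the arrays. lag-1 lay above gld-2 on 4 of 4 arrays too, by 0.20 with an SD of 0.11. The steps from nos-3 to lag-1 (0.08), from gld-3 to glp-1 (0.06) and from glp-1 to gld-1 (0.10) were in that order on 2 of 4 arrays and smaller than their SDs of 0.31, 0.73 and 0.58. gld-2 lay above gld-3 on 3 of 4 arrays, by 0.14 with an SD of 0.25.

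The arrays ranked alike for most of the genes. Preparation 2 gave the lowest value for 5 of the 7 genes (71.4%), against 39.4% of the 18642 features with values on 4 arrays, and preparation 1 gave the lowest for glp-1 and gld-1. The sample titles carry dates that fall in month 4 for preparations 1 and 2 and month 6 for preparations 3 and 4, and what the dates mark is not stated. For 6 of the 7 genes, all but fbf-2, both values of the earlier pair lay below both values of the later pair, which held for 17.8% of all features. The reverse order held for 0 of the 7 genes and for 15% of all features. This order was noticed in the values and carries no test of its own as a group.

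The later pair exceeded the earlier by 1.10 for nos-3 (95% interval 0.14 to 2.05), by 1.07 for gld-1 (0.19 to 1.95), by 1.03 for gld-3 (-0.03 to 2.08) and by 0.73 for gld-2 (-0.26 to 1.71). For lag-1 and glp-1 the difference was 0.58 (-0.40 to 1.55) and 0.09 (-0.77 to 0.95). After adjustment over all features limma called none of these (adjusted p = 0.985 to 0.997), and it called 0 of 18642 features (0%), with 809 at an unadjusted p under 0.05. Within the earlier pair gld-1 averaged -1.48 and within the later pair -0.41, while glp-1 averaged -0.89 and -0.80. The pair means of gld-2 were -1.01 and -0.28, and those of gld-3 were -1.30 and -0.27. nos-3 changed sign between the pairs, from -0.91 to 0.19.

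Other gene lists moved over the same arrays. The median of the 7 switch genes was -0.64, -1.28, -0.36 and -0.01 on preparations 1 to 4. That of the 10 germ cell markers was -0.15, -0.69, 0.30 and 0.45. The earlier pair lay below the later for 7 of these 10 markers (70%, against 17.8% of all features). Muscle markers went from 0.10 and -0.11 to 0.53 and 1.49, with 5 of 6 in that order (83.3%). Thus the order was not confined to germline genes. Oocyte markers, at -1.83, -1.35, -1.18 and -1.99, had 2 of 12 genes in that order (16.7%, near the share of all features). Ribosomal protein genes stood highest on preparation 2, at 1.10 against 0.04 to 0.335 on the others. The part of germ cell number, muscle RNA or array scaling in the switch genes' spread was not tested.

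**Figure D3:**
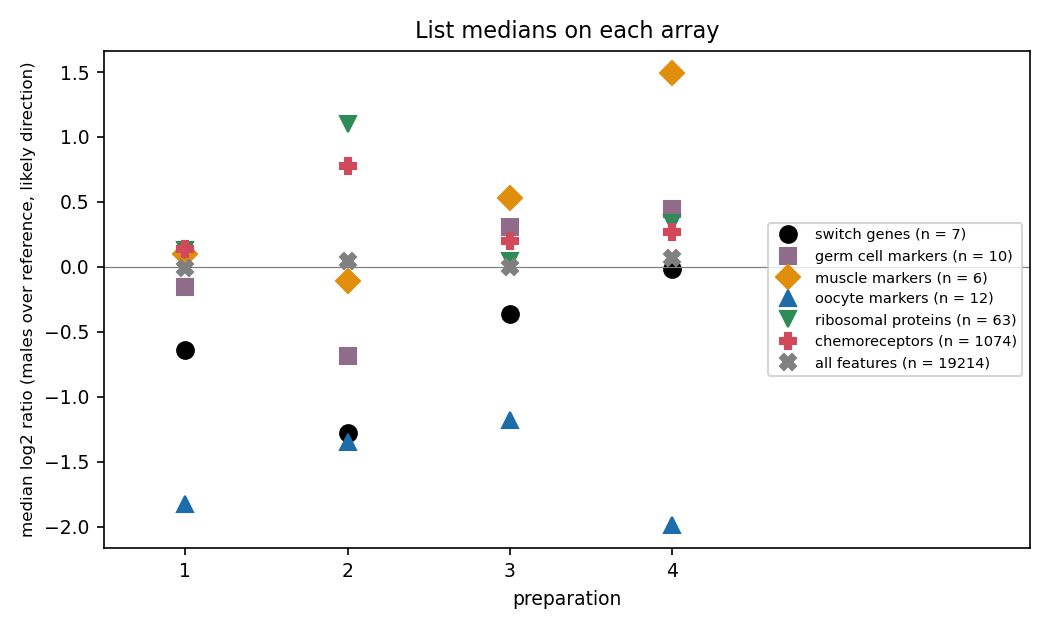
Median log2 ratio (y axis) of the switch genes, of marker lists, of ribosomal protein and chemoreceptor genes and of all tested features on each array (x axis). The switch genes and the germ cell markers are lowest on preparation 2 and highest on preparation 4, while the median of all features stays between -0.01 and 0.07.

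Around the receptor, the other genes of the Notch pathway went both ways. Of 24 listed genes 21 were measured, with 5 higher (23.8%, against 22.1% of all features), 5 lower (23.8%, against 23.6%) and a median of -0.32, so that both shares lay near the background. The largest negative means were those of sup-17, an ADAM metalloprotease gene, at -1.55 ± 0.34, aph-2, the nicastrin gene, at -1.47 ± 0.31, and aph-1, a gamma-secretase subunit gene, at -1.25 ± 0.31 (SD, n = 4, limma adjusted p from 0.00074 to 0.0017). The presenilin gene hop-1 was higher at 1.53 ± 1.56 (SD, n = 4, limma adjusted p = 0.0455), with 0.62, 1.10, 3.84 and 0.56 on preparations 1 to 4. That mean rests on preparation 3, without which hop-1 stood at 0.76 (adjusted p = 0.0556), and the call was also lost without preparation 2 (1.67, adjusted p = 0.0986). Under either centring on gene classes, ribosomal protein or chemoreceptor, 0 of the 21 genes were higher, and 5 or 7 were lower. Without preparation 3 the counts were 1 higher and 3 lower, and without preparation 2 they were 2 higher and 7 lower. The other called genes (named with their values in view) were the ligand and ligand-like genes arg-1 (0.95), dsl-2 (0.83), dos-1 (0.63) and dos-3 (0.51), which were higher, and adm-4 (-0.75) and the other presenilin gene sel-12 (-0.63), which were lower. Of these 6, each lost its call under at least 1 setting. Named in the same way, the second Notch receptor gene lin-12 stood at -0.32 ± 0.27 and sel-8, whose product joins LAG-1 in the nucleus, at -0.19 ± 0.19 (SD, n = 4), and neither was called.

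Downstream of the receptor, lst-1 and sygl-1, which GLP-1 signalling switches on in germline stem cells, were not called. lst-1 averaged -0.27 ± 0.48 and sygl-1 averaged 0.11 ± 0.54 (SD, n = 4, limma adjusted p = 0.337 and 0.707), and both genes had arrays on either side of 0. These genes belong to a list of 23 other stem cell effectors and RNA regulators, of which 19 were measured, 2 were higher (10.5%, against 22.1% of all features) and 7 lower (36.8%, against 23.6%), with a median of -0.24. cpb-2, of the CPEB family of RNA-binding proteins, stood at 2.73, 1.37, 2.60 and 3.29, higher on every array, with a mean 5.65-fold above the reference (limma adjusted p = 0.000689). The other higher gene, cpb-1, whose CPEB protein spermatogenesis needs, stood at 0.84 ± 0.48 (SD, n = 4) and was no longer called once preparation 1, 3 or 4 was left out (0.77, 0.76 and 0.74, with limma adjusted p from 0.0532 to 0.0794), nor with either centring on gene classes. The lower genes included the Nanos gene nos-2 at -1.39 ± 0.73, the phosphatase gene lip-1, whose product dampens MAP kinase in the germline, at -1.05 ± 0.27, and cpb-3 at -1.04 ± 0.23 (SD, n = 4). In this list the earlier pair lay below the later for 10 of 19 genes (52.6%, against 17.8% of all features).

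Messengers that GLD-1 is known to bind and repress were lower as a rule. Of 10 listed, 9 were measured, and 8 were lower and 0 higher (88.9% lower, against 23.6% of all features), with a median of -1.28. oma-2, an oocyte maturation gene, led at -2.29 ± 0.67, followed by gna-2 at -1.67 ± 0.28, puf-5 at -1.46 ± 0.89 and the homeobox gene pal-1 at -1.44 ± 0.38 (SD, n = 4). oma-1 stood at -1.28, the yolk receptor gene rme-2 at -1.05, mex-3 at -1.01 and the cyclin E gene cye-1 at -0.72. The cye-1 call ended once preparation 1, 2 or 3 was left out (limma adjusted p from 0.0543 to 0.0871). The p53-like gene cep-1 was not called at -0.23 ± 0.49 (SD, n = 4). Leaving out any 1 preparation left 7 or 8 of the 9 lower. Most of these messengers are oocyte messengers, 2 of them are also in the oocyte marker list, and that list was lower in 10 of 12 genes. The part of oocytes in the reference in these ratios was not tested.

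Genes of the meiotic chromosome axis, synapsis and other meiotic steps, which act after the switch, were lower or not called. Of 14 listed, 11 were measured, with 7 lower (63.6%, against 23.6% of all features), 0 higher and a median of -0.78. The 4 not called were the axis genes him-3 (-0.54), htp-1 (-0.24), htp-3 (-0.17) and rec-8 (-0.36), so the lower calls fell on other genes of the list. him-17 stood at -1.25 ± 0.31, zhp-3 at -1.06 ± 0.55, spo-11, which makes the meiotic DNA breaks, at -1.02 ± 0.78, and the synapsis gene syp-3 at -0.92 ± 0.43 (SD, n = 4). The spo-11 call did not survive the loss of preparation 2, 3 or 4 (-0.90, -1.07 and -0.76, with limma adjusted p from 0.0548 to 0.0887). Without preparation 3 the count of lower genes was 4 of 11. In this list 0 of 11 genes (0%, against 17.8% of all features) had the earlier pair below the later. This was unlike 6 of the 7 switch genes, and the difference between the lists was not tested.

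In hermaphrodites the sperm or oocyte decision lies downstream of several switch genes. There FBF and NOS-3 repress fem-3, and GLD-1 acts on tra-2 with FOG-2. Of 9 listed genes 6 were measured, with 2 higher (33.3%, against 22.1% of all features) and 3 lower (50%, against 23.6%). fog-3, which commits germ cells to sperm, was higher at 2.15 ± 0.71 (SD, n = 4, limma adjusted p = 0.000885), and her-1, a male-directing signal, was higher at 1.77 ± 0.55 (SD, n = 3, limma adjusted p = 0.00267). fem-3 was lower at -1.17 ± 0.37, fog-2 at -0.89 ± 0.45 and fem-2 at -0.81 ± 0.33 (SD, n = 4), and fem-1 was not called at -0.51 ± 0.47 (SD, n = 4). The fog-2 call was lost without preparation 3 (-0.82, adjusted p = 0.0608). fog-2 is also counted in the list of stem cell effectors and RNA regulators, and her-1 among the male soma markers.

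**Figure D4:**
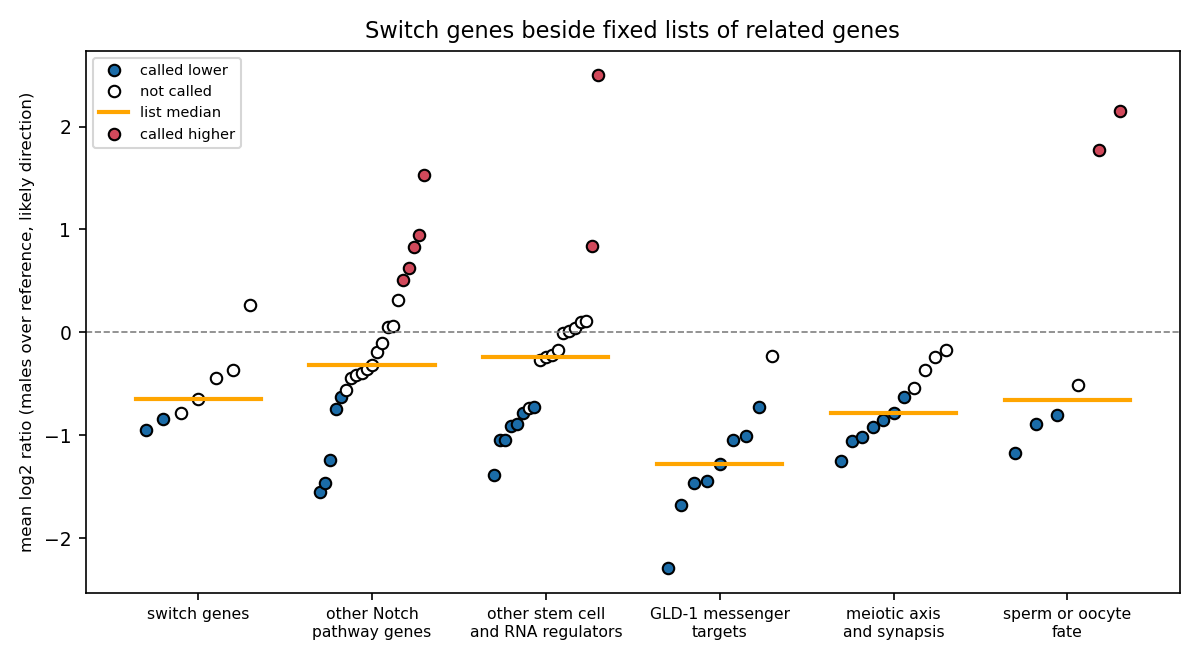
Mean log2 ratio (y axis) of every measured gene in the switch set and in 5 lists of related genes (x axis), coloured by call, with the list median as a bar. The GLD-1 messenger targets have the lowest median at -1.28, and fog-3 and cpb-2 stand above 2.

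Among 14657 other named genes with values on 4 arrays, those closest to glp-1 over the arrays were nhr-190, C39B10.1 and C16A3.5. They differed from glp-1 by a root mean square of 0.06, 0.06 and 0.07 on the log2 scale, with means of -0.81, -0.88 and -0.86. Those closest to gld-1 were him-14, zag-1 and mcm-2, at 0.18, 0.23 and 0.23 from it. him-14 stood at -1.40, -1.44, -0.53 and -0.66 on preparations 1 to 4, with the same separation of the pairs as gld-1. With 4 arrays such closeness describes these values only.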

How the data were processed

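The deposited table holds log2 ratios. Their medians lay near 0 on every array, and the scaling by the authors was not given in the sources used here. Base 2 was taken from the values themselves. No spot intensities were used here, so background and faint spots could not be examined. No genome build is named, and coordinates are not given. Of 20000 probes, 15655 had 1 gene symbol, 198 several and 4147 none, and symbols were updated through gene identifiers to assembly WBcel235. Probes of a gene were averaged per array. The 19214 features with values on at least 3 arrays were fitted with limma 3.58.1 in R 4.3.3 (lmFit with an intercept, eBayes, two-sided, Benjamini-Hochberg over all features, called at an adjusted p under 0.05). The mean log2 ratio was tested against 0. It is not stated that a single reference RNA served all arrays, and if it did, its own spread is left out of the test. An exact sign-flip test of a single gene could not go below 0.125 with 4 arrays. The steps were run on simulated data with independent noise for each feature. That simulation held no shifts shared by genes on an array and no pairs of arrays, so it does not cover such spread.

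The members and lists were chosen with earlier results of these data known. Named genes are the switch genes, up to 4 called genes of each list with the largest absolute mean and a single sign, lists of at most 10 measured genes in full where needed, and the 3 genes closest to glp-1 and to gld-1. Others named were chosen after their values were seen, as were marker exceptions, lst-1, sygl-1 and cpb-1. Alternatives covered scaling, missing values, moderation, weights, probes, threshold, single preparations and title months. The fits within and between the pairs of title months were added after the data were seen. Figures were drawn with matplotlib 3.10.9.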

Additional observations from a re-analysis of the deposited data

Results flagged for a closer look

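In 7 of 124 genes of the lists with values on 4 arrays, and in 1 of 16 list medians, a single array stood far from the others relative to the range, by Dixon's 95% criterion for 4 values. Chance alone gives about 1 in 20 such cases. None of the 7 switch genes was among them, the nearest being lag-1 with a gap of 0.698 of its range. On preparation 2 the values that stood apart were cpb-1 at 0.12, fem-1 at -1.21, cwp-2 at 2.05 and the median of the other Notch pathway genes at -0.40 (-0.396). On preparation 3 it was hop-1 at 3.84. On preparation 4 they were msp-31 at 3.97, msp-59 at 4.33 and elt-2 at 0.29 (0.289).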

How the results depend on the processing

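Precision is limited by 4 arrays of the only group, and signal over background could not be examined. No paired analysis was possible because no other group shares the preparation numbers, and each ratio already sets males beside reference within an array. Of 113 values of single switch genes under alternatives, 94 kept direction and side of the threshold, 5 lost the call, 11 gained it and 3 changed sign. Some of the 94 were nearly fixed beforehand. All 7 genes had values on 4 arrays, so requiring 4 arrays repeated their means. Fitting each probe on its own repeated the means of the 6 genes with 1 probe. The threshold of 0.01 could not change the 5 genes that were not called. fbf-2 was -0.13 and -0.075 with arrays centred on ribosomal protein or chemoreceptor genes, and nos-3 was 0.19 in the later pair of title months alone. glp-1 kept its call in all alternatives but the earlier pair alone, where 2 arrays gave -0.89 (adjusted p = 0.0969). The count of switch genes called lower, 2 as deposited, was 4 with median centring, quantile normalization, array weights or the title month as a random block (consensus correlation within pairs -0.22). It was 1 at an adjusted p under 0.01 and in the later pair alone, and 1 to 4 when each preparation was left out in turn. The count called higher was 0 throughout. Over all features, 4242 were called higher and 4535 lower (48.3% of calls higher). The higher calls were 1624 (26.4% of calls) and 1997 (26.2% of calls) with arrays centred on ribosomal protein or chemoreceptor genes. Higher and lower calls were 2393 and 2683 at an adjusted p under 0.01, and 2375 and 2459 in the earlier pair alone. They ran from 2782 to 3755 and from 3010 to 4280 without single preparations, lowest without preparation 3. The cause of these changes was not tested.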
